A study of Zea mays with 18 samples.

Results

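Hypoxia in the ZmPgb1.1 down-regulated maize line was examined here in 6 RNA sequencing libraries of the 18 in the series. The tissue was the quiescent centre, isolated from root tips of seedlings that were 5 days old. The 6 libraries were chosen by their labels: 3 libraries of line Pgb1.1A after 12 h in a solution supplied with 4% oxygen (A_12h) and 3 libraries of the same line at 0 h under normoxia (A_0h). The other 12 libraries come from the overexpressing line Pgb1.1S (S_12h and S_0h) and from the wild type (WT_12h and WT_0h), 3 per group. Both groups of line A carry the same down-regulation of ZmPgb1.1, and the labels do not say how it was obtained, whether several independent lines were used or whether each library stands for its own batch of roots. The p-values below therefore measure the spread between libraries only, which may be technical. In the fits to all groups that spread is taken from the WT and S libraries as well. There is no 12 h library under normoxia, so the effects of oxygen and of time in the solution cannot be told apart.

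The quiescent centre is a small group of rarely dividing cells at the root tip that maintains the stem cells around it. Phytoglobins are plant hemoglobins that convert nitric oxide to nitrate with the help of bound oxygen, and their genes are known as hypoxia-responsive. In plant roots, low oxygen is known to shift energy metabolism from respiration to fermentation, with induction of alcohol dehydrogenase, pyruvate decarboxylase and sucrose synthase, and nitric oxide takes part in the degradation of the transcription factors behind that response. None of these genes can be singled out in the counts, because 0 of the 28724 gene IDs could be paired with a name. ZmPgb1.1, the 28 lists of fermentation, glycolysis, hormone, stem cell and cell type marker genes, and the identity of the tissue were therefore not checked, and genes are given by their ID.

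The 6 libraries held 35441975 to 84121755 counts, with the lowest total in A_12h replicate 3, and 21120 to 22265 genes were detected in each. The equivalent of 3 counts, the floor below which a gene is read as off, was 0.0357 to 0.0846 CPM (a gene's counts in every 1000000 of the library). Without molecular identifiers several reads can stem from 1 molecule, so floors and counting intervals cover counting error alone.

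Replicate 3 of both groups stood apart from the libraries that share its label. A_12h replicates 1 and 2 had a Spearman correlation of 0.9981 across genes, and A_0h replicates 1 and 2 one of 0.9975. A_0h replicate 3 correlated at 0.9979 and 0.998 with A_12h replicates 1 and 2, and at 0.9497 and 0.9495 with A_0h replicates 1 and 2. The numbers of genes that differ at least 2-fold say the same: 904 and 835 of 20945 genes lay that far apart between A_0h replicate 3 and A_12h replicates 1 and 2, and 814 between these 2 A_12h libraries themselves. Against A_0h replicates 1 and 2, A_0h replicate 3 differed 2-fold in 4849 and 4852 genes. A_12h replicate 3 correlated at 0.9718 with both other A_12h libraries and at 0.9974 and 0.9973 with S_12h replicates 1 and 2. The nearest libraries of S_12h replicate 3, in turn, were A_0h replicates 1 and 2, at 0.9972 and 0.9971. The counts of any 2 libraries of line A differed by more than sampling noise, with a chi-square per gene of at least 4.3, where a library counted again would give about 1. Each result below is therefore given with all 3 libraries a side and again without A_12h replicate 3 and A_0h replicate 3. In each of the 6 groups of the series, 1 library had both of its nearest libraries in 1 other group. Whether labels were exchanged was not tested, and every group is given here by its labels as deposited.

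With all 3 libraries a side, 0 of 20945 genes passed an adjusted p of 0.05 by edgeR's quasi-likelihood test with Benjamini-Hochberg adjustment, a background of 0%. The lowest adjusted p was 0.257. An unadjusted p under 0.05 was reached by 4021 genes (19.2%), of which 1550 were higher (7.4%) and 2471 lower (11.8%) in A_12h. The 3 A_12h libraries did not overlap with the 3 A_0h libraries in 3729 genes (17.8%), 1895 of them higher (9.05%) and 1834 lower (8.76%) in A_12h. DESeq2 called 176 genes, 8 higher and 168 lower, and limma-voom called 0. The count of 0 rested on A_0h replicate 3: without it edgeR called 5112 genes, and without any other of the 6 libraries it called 0.

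Without the 2 libraries, 3671 of 21282 genes (17.2%) passed the same test. They were 2275 genes higher in A_12h (10.7%) and 1396 lower (6.56%), and the lowest adjusted p was 4.63e-07. In 81.5% of the genes tested, the A_12h pair and the A_0h pair did not overlap. The median log2 fold change, A_12h over A_0h, was 1.11 for the genes that rose and -0.84 for those that fell, beside 0.01 over all genes tested. At least 2-fold changes were seen in 1236 of the genes that rose (54.3%) and 593 of those that fell (42.5%), beside 24.4% of all genes tested. At least 16-fold changes were seen in 98 (4.31%) and 139 (9.96%), beside 4.82% of all genes tested. Dropping a library because it differs from its group makes the spread smaller by construction, and the spread in this fit is also set by the WT and S libraries. In the fit of only the 4 libraries compared, 13754 genes were called, 6752 higher and 7002 lower, and the excess of higher genes was lost. It was also lost by limma-voom, with 2294 higher and 2477 lower. The count was 430 and 378 without A_0h replicate 1 or 2, and 684 and 614 without A_12h replicate 1 or 2.

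The change was spread over genes of low and high abundance. Of the genes with a mean under 1 CPM over the 4 libraries, 6.55% were called, with 4.6% higher and 1.95% lower in A_12h. From 1 to 10 CPM the share was 20.4%, from 10 to 100 CPM 19.9%, and from 100 to 1000 CPM 16.5%. Higher calls outnumbered lower calls below 100 CPM (12.3% against 7.54% from 10 to 100 CPM). From 100 to 1000 CPM they did not (7.86% higher, 8.62% lower). Of the 76 most abundant genes, over 1000 CPM, 4 rose and 5 fell.

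Among the 3671 genes, 3650 had the same direction with all 3 libraries a side, 19 had the opposite one and 2 were below the low-count filter there. The size differed: with all libraries the median log2 fold change was 0.53 for the genes that rose without replicates 3 and -0.51 for those that fell. The 2 versions share 4 of the 6 libraries, so this agreement in direction is no separate support. An unadjusted p under 0.05 with the same direction was reached by 1525 of them (41.5%, beside 19.2% of all genes in either direction). The groups of 3 were apart in the same direction in 555 (15.1%, beside 17.8% of all genes in either direction) and in the opposite direction in 0. Because 0 genes passed the adjusted threshold with all libraries, a change was counted as holding in both versions when a gene called without replicates 3 also had the same direction, an unadjusted p under 0.05 and no overlap between the groups of 3.

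By this rule 506 genes held in both versions (2.38% of the genes tested), 256 higher (1.2%) and 250 lower (1.17%) in A_12h. The other 3165 genes (14.9%) held only in the second version, 2019 higher (9.49%) and 1146 lower (5.38%). The number that held in both versions was 1395 with only the line A libraries in the fit, 1095 without A_12h replicate 3 and 3249 without A_0h replicate 3. It was 6 and 2 without A_0h replicate 1 or 2, and 12 and 10 without A_12h replicate 1 or 2.

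**Figure D1:**
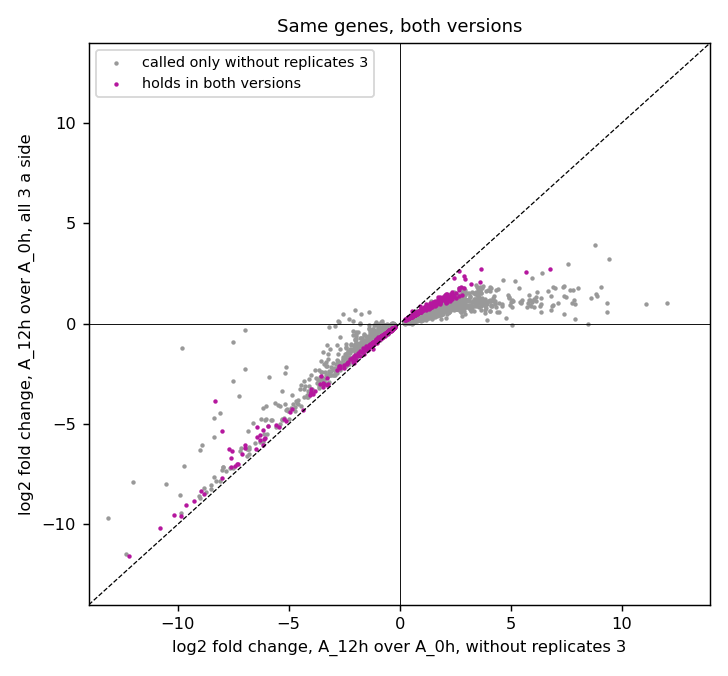
log2 fold change of the 3671 called genes, A_12h over A_0h, without replicates 3 (x axis) and with all 3 libraries a side (y axis); magenta points are the 506 genes that held in both versions, grey points the 3165 that held only without replicates 3, and the dashed line marks equal values. Genes that rose lie far below the dashed line, genes that fell lie nearer to it, and 19 genes change sign.

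Of the genes that held in both versions, Zm00001d024666.RefGen_V4 had the largest rise under the rule for named genes. It measured 18.2, 16.6 and 17.8 CPM in A_12h replicates 1, 2 and 3, against 3.1, 2.88 and 15.8 CPM in A_0h replicates 1, 2 and 3. The groups did not overlap, but A_0h replicate 3 lay just below the A_12h libraries and not near the other A_0h libraries. Without replicates 3 the means were 17.4 ± 1.17 and 2.99 ± 0.157 CPM in A_12h and A_0h (SD, n = 2 each), a 5.82-fold ratio. The log2 fold change was 2.53 without replicates 3 (SE 0.44, adjusted p = 0.00456 by edgeR) and 1.27 with all libraries (SE 0.55, adjusted p = 0.257). The call without replicates 3 was lost when A_0h replicate 1 or 2 was also left out (adjusted p = 0.0548 and 0.0622).

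Zm00001d034387.RefGen_V4 showed the same order with a wider A_12h group. Its level was 53.8, 53.3 and 90.8 CPM in A_12h replicates 1, 2 and 3, against 8.93, 9.59 and 50.6 CPM in A_0h replicates 1, 2 and 3. Here too A_0h replicate 3 came within 3 CPM of A_12h replicate 2, and A_12h replicate 3 was the highest of the 6. The log2 fold change was 2.53 without replicates 3 (SE 0.69, adjusted p = 0.0283 by edgeR), a 5.79-fold ratio of means, and 1.52 with all libraries (SE 0.69, adjusted p = 0.257). Its call was lost by limma-voom (adjusted p = 0.0831) and without any 1 of the 4 libraries (0.104 to 0.15).

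The strongest falls that held in both versions were of genes at or near the floor in A_12h. With all libraries, the 2 genes named next had no result with only line A in the fit or under the stricter low-count filter. Within line A they were high in A_0h replicates 1 and 2 alone. Outside line A, S_12h replicate 3 was high too (47.9 CPM for Zm00001d042684.RefGen_V4 and 31.3 CPM for Zm00001d027470.RefGen_V4). Their results with all libraries thus come only from fits that include WT and S libraries. Zm00001d042684.RefGen_V4 measured 0.0277 and 0.0704 CPM in A_12h replicates 1 and 2 and had 0 counts in A_12h replicate 3, against 50.6, 44.9 and 0.114 CPM in A_0h replicates 1, 2 and 3. The separation of the groups of 3 rested on 8 counts in A_0h replicate 3 against 2, 6 and 0 counts in the A_12h libraries. The ratio of means without replicates 3 was 973-fold (log2 fold change -9.84, SE 2.64, adjusted p = 0.027 by edgeR), and the log2 fold change with all libraries was -9.58 (SE 2.55, adjusted p = 0.257). DESeq2 called this gene with all libraries (adjusted p = 0.00793) but gave it no adjusted p without replicates 3.

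Zm00001d027470.RefGen_V4 measured 0.0277, 0.0704 and 0.0276 CPM in A_12h replicates 1, 2 and 3, against 31.0, 32.9 and 0.143 CPM in A_0h replicates 1, 2 and 3. As for the gene before, A_0h replicate 3 was low, and its 10 counts exceeded the 2, 6 and 1 counts of the A_12h libraries. The ratio of means without replicates 3 was 651-fold (log2 fold change -9.27, SE 2.66, adjusted p = 0.0342 by edgeR). With all libraries the log2 fold change was -8.83 (SE 2.45, adjusted p = 0.257). DESeq2 called the gene there (adjusted p = 0.000728) but gave it no adjusted p without replicates 3. Both genes lost their call when any 1 of the 4 libraries was also left out, at adjusted p-values of 0.0887 to 0.17 for Zm00001d042684.RefGen_V4 and 0.103 to 0.195 for Zm00001d027470.RefGen_V4.

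The genes that held only without replicates 3 had A_0h replicate 3 at the A_12h level. Zm00001d038523.RefGen_V4 measured 11.9 and 13.1 CPM in A_12h replicates 1 and 2, with 0.0552 CPM in A_12h replicate 3, against 0.0176 and 0.0174 CPM in A_0h replicates 1 and 2 and 12.1 CPM in A_0h replicate 3. Replicates 3 were thus the reverse of replicates 1 and 2, with the A_12h library at 2 counts and the A_0h library at 844. A_0h replicates 1 and 2 held 2 counts together, so the ratio of 717 has a counting interval of 198 to 5922 (exact binomial, 95%). The log2 fold change was 9.33 without replicates 3 (SE 1.1, adjusted p = 0.00103 by edgeR) and 1.05 with all libraries (SE 1.72, adjusted p = 0.696). This was the only named gene that kept its call after the loss of any 1 of the 4 libraries, at 0.011 to 0.0298.

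Zm00001d004509.RefGen_V4 measured 37.1, 40.5 and 3.94 CPM in A_12h replicates 1, 2 and 3, against 0.211, 0.105 and 40.3 CPM in A_0h replicates 1, 2 and 3. A_0h replicate 3 was again at the A_12h level, while A_12h replicate 3 lay between the pairs. The ratio of means without replicates 3 was 246-fold (log2 fold change 7.92, SE 1.61, adjusted p = 0.00917 by edgeR), and the log2 fold change with all libraries was 1.01 (SE 1.52, adjusted p = 0.669). The call was lost by limma-voom (adjusted p = 0.13) and without A_0h replicate 1 or 2 (0.0853 and 0.0949).

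Zm00001d012761.RefGen_V4 had 0 counts in A_12h replicates 1 and 2 and 2 counts in A_12h replicate 3, against 14.7 and 17.3 CPM in A_0h replicates 1 and 2 and 0 counts in A_0h replicate 3. It was on in 2 of the 6 libraries only, both labelled A_0h. Set against a floor of 3 counts over A_12h replicates 1 and 2, it was at least 841-fold lower there (adjusted p = 0.0314 by edgeR without replicates 3, and 0.257 with all libraries). Outside line A it measured 15.3 CPM in S_12h replicate 3 and at most 0.0727 CPM in any other library. S_12h replicate 3 also held 47.9 CPM of Zm00001d042684.RefGen_V4 and 31.3 CPM of Zm00001d027470.RefGen_V4. Zm00001d036609.RefGen_V4 followed the same pattern: 2, 0 and 1 counts in A_12h replicates 1, 2 and 3, against 74.7 and 73.5 CPM in A_0h replicates 1 and 2 and 0 counts in A_0h replicate 3. With 2 counts over A_12h replicates 1 and 2, the ratio of A_0h over A_12h was 5833, with a counting interval of 1614 to 48175 (exact binomial, 95%). Its level in S_12h replicate 3 was 73.8 CPM, and its adjusted p by edgeR was 0.0283 without replicates 3 and 0.257 with all libraries. Both calls were lost on leaving out any 1 of the 4 libraries, at adjusted p-values of 0.0953 to 0.163 for Zm00001d012761.RefGen_V4 and 0.0909 to 0.175 for Zm00001d036609.RefGen_V4, and that of Zm00001d036609.RefGen_V4 also by limma-voom (0.052).

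**Figure D2:**
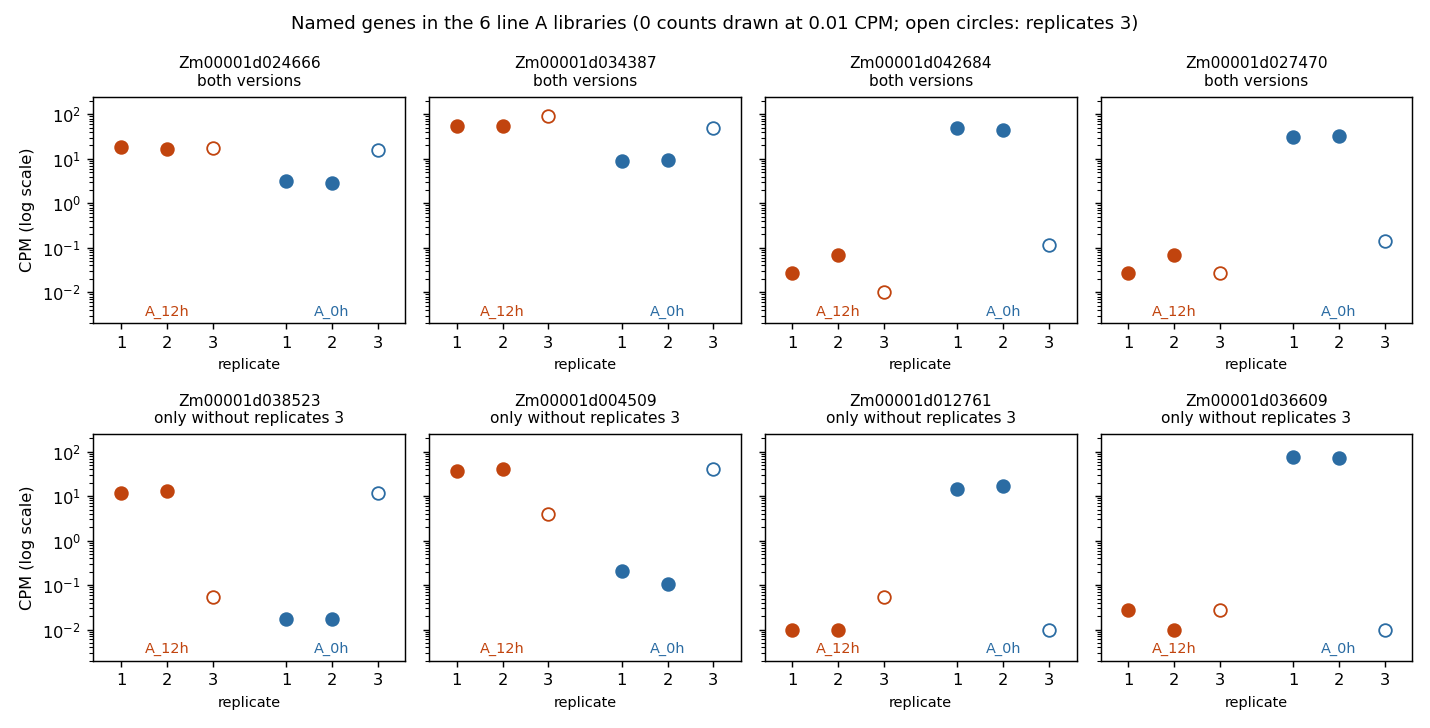
CPM (log axis) of the 8 named genes in each of the 6 line A libraries, A_12h in orange and A_0h in blue, with open circles for replicates 3 and 0 counts drawn at 0.01 CPM. In every panel the open A_0h circle lies near the filled A_12h circles and far from the filled A_0h circles.

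The levels of the 2 libraries left out were then set beside those of the other 4 for the 3671 genes. These libraries were left out because they resemble other groups, so their positions describe that resemblance gene by gene and are no independent test. A position on the log2 CPM scale was computed for each gene, with 0 at the mean of A_0h replicates 1 and 2 and 1 at the mean of A_12h replicates 1 and 2. The median position was 0.742 for A_12h replicate 3 (quartiles 0.397 and 0.997) and 0.982 for A_0h replicate 3 (quartiles 0.906 and 1.05). A_12h replicate 3 was nearer to the A_12h pair in 68.1% of these genes. A_0h replicate 3 was nearer to the A_12h pair in 3629 of the 3671 genes, or 98.9%. Over all genes tested, the share nearer to the A_12h pair was 68.7% for A_12h replicate 3 and 84.8% for A_0h replicate 3. Both libraries lay on the side of their own label in 22 of the 3671 genes (0.599%), against 1692 of all genes tested (7.95%).

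**Figure D3:**
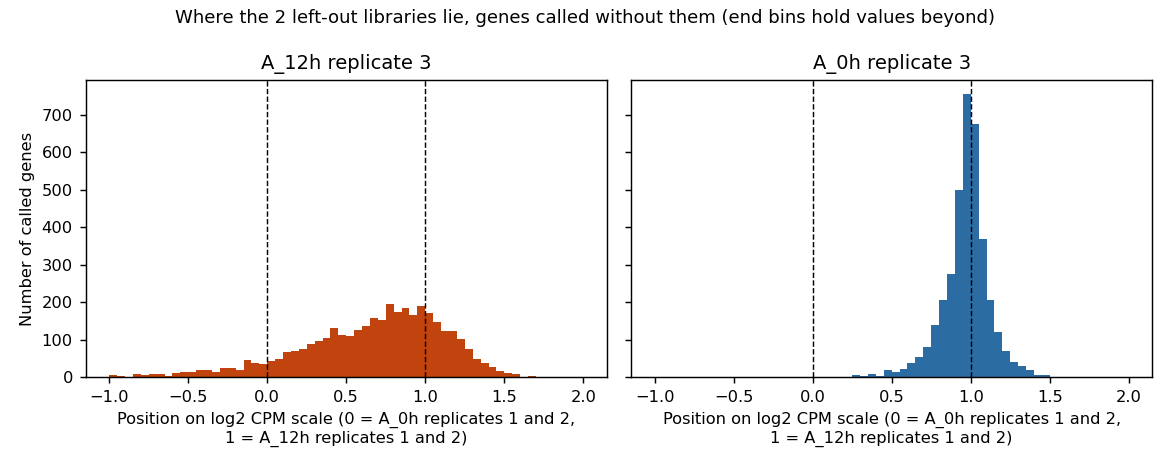
Histograms over the 3671 genes called without replicates 3 of where A_12h replicate 3 (left) and A_0h replicate 3 (right) lay between the A_0h pair (0) and the A_12h pair (1) on the log2 CPM scale; the y axis counts genes. A_0h replicate 3 peaks at 1, with a median of 0.982, while A_12h replicate 3 is spread widely around a median of 0.742.

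Taken by themselves, A_12h replicate 3 and A_0h replicate 3 differed in the direction of the other 4 libraries in 1013 of the 3671 genes (27.6%), against 50.3% over all genes tested. For the genes that rose, the median difference, A_12h replicate 3 minus A_0h replicate 3, was -0.24 on the log2 scale, and for those that fell it was 0.17. Of the 506 genes that held in both versions, A_0h replicate 3 was nearer to the A_12h pair in 481 in which A_12h replicate 3 was also nearer to it, and each library was on its own label's side in 22. The median position of A_0h replicate 3 was 0.878 for the 256 genes that rose and 0.846 for the 250 that fell. The rule for holding in both versions uses these libraries, so these positions describe the genes and test nothing. The 22 genes were 8 that rose and 14 that fell, with a median absolute log2 fold change of 0.66 without replicates 3. Of them, 7 changed at least 2-fold (31.8%). That share was 48.2% of the 506 genes, 49.8% of the 3671 called genes and 24.4% of all genes tested.

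The levels of the called genes were also summed for each library. These genes were chosen by the difference between the A_12h and A_0h pairs, so the sums of the pairs follow from the choice and test nothing. The 2275 genes that rose summed to 112400 and 113000 CPM in A_12h replicates 1 and 2, and to 61340 and 61010 CPM in A_0h replicates 1 and 2, a 1.84-fold ratio. In the libraries left out, A_12h replicate 3 summed to 88630 CPM and A_0h replicate 3 to 111100 CPM, a ratio of 0.798. The 1396 genes that fell summed to 65280 CPM in each of A_12h replicates 1 and 2, and to 100300 and 99810 CPM in A_0h replicates 1 and 2. For these, A_12h replicate 3 held 70940 CPM and A_0h replicate 3 held 65360 CPM. Neither sum kept its A_12h to A_0h order in replicates 3. Gene by gene, the direction was kept in 588 of the genes that rose (25.8%) and 425 of those that fell (30.4%). Summed over only the genes that held in both versions, the order was kept, at ratios of 1.13 for rises and 0.914 for falls. The rule for those genes uses replicates 3. The sums of the 6 WT libraries lay between those of the line A pairs, at 86070 to 92780 CPM for the genes that rose and 73790 to 78790 CPM for those that fell. Gene by gene, the WT mean lay between the pairs in 63.1% of the genes that rose and 74.6% of those that fell. The S libraries other than S_12h replicate 3 also lay between, at 88440 to 92770 CPM and 71600 to 77860 CPM. S_12h replicate 3 held 62140 and 99230 CPM, close to A_0h replicates 1 and 2.

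**Figure D4:**
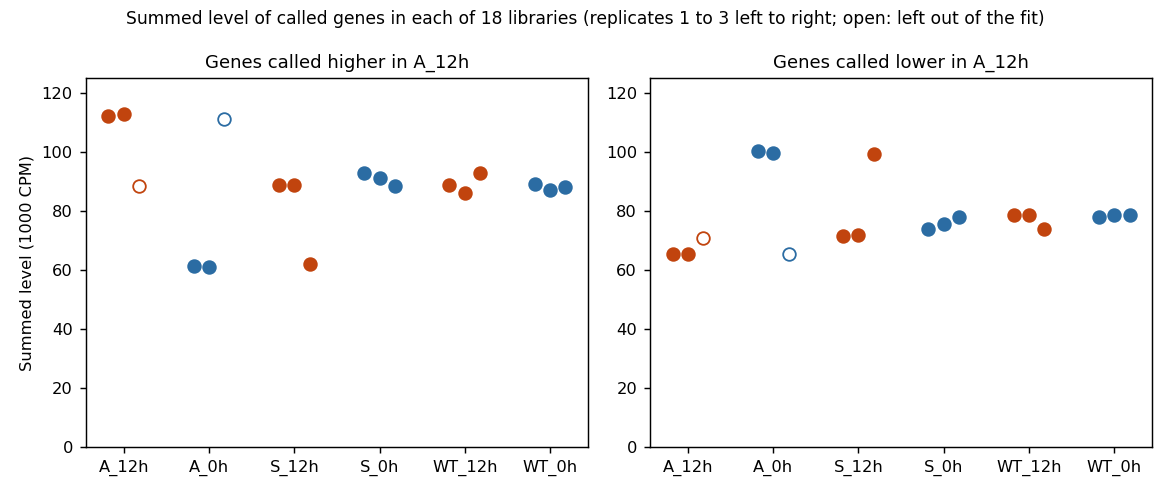
Summed level, in units of 1000 CPM, of the 2275 genes called higher (left) and the 1396 called lower (right) in A_12h without replicates 3, in each of the 18 libraries (12 h in orange, 0 h in blue, open circles for the 2 libraries left out of the fit). A_0h replicate 3 lies with A_12h replicates 1 and 2, and S_12h replicate 3 with A_0h replicates 1 and 2.

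Genes that were on in one pair and off in the other were more often off in A_12h. A total of 178 genes had at most 3 counts over A_12h replicates 1 and 2 and a mean of at least 1 CPM in A_0h replicates 1 and 2, and 16 genes had the opposite pattern. The 178 genes reached a median of 2.6 and a highest level of 74.1 CPM in the A_0h pair, and 26 of them averaged at least 10 CPM. A_12h replicate 3 had at most 3 counts of 170 of them and A_0h replicate 3 of 166. S_12h replicate 3 held at least 1 CPM of 171, and all 6 WT libraries were below 1 CPM for 176. The S libraries other than S_12h replicate 3 were all below 1 CPM for 175. Most of the 178 genes were thus low in nearly every library except A_0h replicates 1 and 2 and S_12h replicate 3. Of the 178 genes, 22 passed the adjusted threshold without replicates 3 (12.4%, beside 17.2% of all genes), and 11 held in both versions (6.18%, beside 2.38% of all genes). For the 16 genes off in the A_0h pair, 0 were off in A_0h replicate 3 and 3 were off in A_12h replicate 3. All 6 WT libraries were below 1 CPM for 14 of them, and the S libraries other than S_12h replicate 3 for 10. S_12h replicate 3 held at least 1 CPM of 0. Of these 16, 13 passed the adjusted threshold (81.2%, beside 17.2% of all genes) and 1 held in both versions (6.25%, beside 2.38%).

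The response of line A was set against that of WT by the difference of their log2 fold changes. With all 18 libraries, 0 of 20945 genes differed at an adjusted p of 0.05 by edgeR (background 0%, lowest adjusted p 0.689), 1089 had an unadjusted p under 0.05 (5.2%), limma-voom called 0 and DESeq2 called 16. Without A_12h replicate 3 and A_0h replicate 3, 895 of 21282 genes (4.21%) differed, 714 with the higher value in line A (3.35%) and 181 with the lower (0.85%). All 3 libraries a side were kept for WT in this fit, although the nearest library of each of the 6 WT libraries carried another label, and for WT_12h replicate 3 and WT_0h replicate 2 the second nearest did too. Without these 2 and the corresponding 2 libraries of line S, 10055 genes differed. The count was 309 to 409 without WT_12h replicate 1 or 2 or WT_0h replicate 1 or 3, and 77 to 118 without any 1 of the 4 line A libraries.

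Among the named genes, 3 passed the test of the difference without replicates 3. For Zm00001d024666.RefGen_V4 the log2 fold change was 2.53 in line A and -0.05 in WT, where it measured 16.8, 15.4 and 16.5 CPM in WT_12h replicates 1, 2 and 3 and 17.6, 15.7 and 17.2 CPM in WT_0h replicates 1, 2 and 3. The 12 h and 0 h libraries of WT overlapped, and A_0h replicates 1 and 2 were far below all of them. For Zm00001d038523.RefGen_V4, on in A_12h replicates 1 and 2 and in A_0h replicate 3, no WT library was above 0.0299 CPM, so WT was at or under the floor at both times. Zm00001d004509.RefGen_V4 measured 21.1, 21.3 and 19.8 CPM in WT_12h replicates 1, 2 and 3, against 2.21, 23.1 and 6.66 CPM in WT_0h replicates 1, 2 and 3, so that the WT groups overlapped through WT_0h replicate 2. Its log2 fold change was 7.92 in line A and 0.96 in WT.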

How the data were processed

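Total RNA of isolated quiescent centres was sequenced by the submitters. The values deposited by the authors are whole-number read counts per gene, not normalised, for 28724 gene IDs in 18 libraries. The tools named in the submitters' processing notes are HISAT2 and featureCounts, with B73 RefGen_v4 as the genome build. Their versions, strandedness, filters and handling of multi-mapping reads were not given in the sources used here, so near-identical, overlapping and antisense genes are uncertain. The gene name table at hand belongs to the Zm-B73-REFERENCE-NAM-5.0 assembly and matched 0 IDs, so gene lists and sequences were not used.

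Counts were analysed in R 4.3.3 with edgeR 4.0.16, limma 3.58.1 and DESeq2 1.42.0. Genes were filtered with filterByExpr, libraries scaled by TMM, and 1 mean per group was fitted with robust quasi-likelihood dispersion to all 18 libraries (12 residual degrees of freedom) or to 16, without A_12h replicate 3 and A_0h replicate 3 (10 residual degrees of freedom). A gene was called at a Benjamini-Hochberg adjusted p under 0.05. CPM uses the TMM factors of all 18 libraries; correlations and positions use log2 CPM with a prior count of 2. The fits were also run on simulated counts. No simulated library was made to resemble another group, so that run cannot show how the fits behave with replicates 3 as they are here. Members, lists, the second version and the alternatives were chosen with earlier results of these data known. With IDs only, the rule for named genes took the 2 largest rises and 2 largest falls without replicates 3, among genes that held in both versions and among those that did not, with at least 10 CPM in the higher pair and no overlap between the pairs.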

Additional observations from a re-analysis of the deposited data

Results flagged for a closer look

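The difference in the response to hypoxia between line A and WT passed an adjusted p of 0.05 by edgeR's quasi-likelihood test in 895 genes without A_12h replicate 3 and A_0h replicate 3, and in 0 genes with all libraries. The difference, line A minus WT, was 2.59 on the log2 scale for Zm00001d024666.RefGen_V4 (SE 0.55, adjusted p = 0.0241). It was 9.90 for Zm00001d038523.RefGen_V4 (SE 1.86, adjusted p = 0.0198) and 6.96 for Zm00001d004509.RefGen_V4 (SE 1.77, adjusted p = 0.0479). The size for Zm00001d038523.RefGen_V4 is uncertain, because A_0h replicates 1 and 2 held 2 counts together. WT was at or under the floor for that gene, with a log2 fold change of -0.56. With all 18 libraries these differences were 1.32, 1.61 and 0.05. Apart from the default outlier handling within DESeq2, single outlying libraries were not checked gene by gene.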

How the results depend on the processing

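With all libraries, 0 genes were called under 7 of the settings tried (limma-voom, RLE scaling, both other low-count filters, the replicate block, only the groups compared, and without 4 WT and S libraries, the last chosen after seeing the data), and DESeq2 called 176; leaving out 1 library gave 0 to 5112. Without the 2 libraries, the count was 5516 by DESeq2, 13754 with only the 4 libraries compared, 12514 also without 4 WT and S libraries, 3947 with the replicate block and 378 to 684 with 1 more library left out. Of the 3671 genes, 3657 were called in the same direction in the 4-library fit and 3670 in the fit also without 4 WT and S libraries; 0 of those measured changed direction in the second version under any setting tried.

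The number holding in both versions was 940 by DESeq2, 1395 with only the groups compared, 2528 also without 4 WT and S libraries and 2 to 3249 leaving out 1 library; the number holding only in the second was 12359, 9986 and 376 to 2576 under the last 3 of these, and 4576 by DESeq2. For the difference from WT with all libraries, DESeq2 called 16 genes and the fit without 4 WT and S libraries 430, against 0 leaving out any 1 library. Without the 2 libraries it was 2677 by DESeq2, 10055 also without 4 WT and S libraries and 77 to 1083 leaving out 1 library. The cause was not tested; a fit with 1 library in a group assumes that it varies like the others.

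Same-numbered libraries of A_12h and A_0h deviated from their group means with correlations of -0.16, -0.206 and -0.244, and 0 of 3 A_12h libraries correlated best with its own number. These values include replicates 3, which resemble other groups, so they cannot show whether the numbers pair the libraries. Without replicates 3 the correlation was -0.00331, so replicates 1 and 2 showed no pairing by number. The replicate block gave 518 genes holding in both versions, 3429 only in the second, and 605 differing from WT. Without the 2 libraries, DESeq2 gave no adjusted p for 4 of the 8 named genes, which were the 4 that fell.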
